A study of Mus musculus with 4 samples.

Results

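Hox paralog groups 9 and 10 were represented by 7 genes, Hoxa9, Hoxb9, Hoxc9, Hoxd9, Hoxa10, Hoxc10 and Hoxd10, and by the open chromatin regions assigned to them. Peak intervals of the 4 libraries sharing at least 1 bp were joined into regions, and each region was given to the protein-coding gene body that held its midpoint, or otherwise to the nearest body within 100 kb. This gave 30 regions for the 7 genes, of 165822 regions assigned to a gene and 199576 regions in all. ATAC-seq, which reads out open chromatin through insertions of the transposase Tn5, was run on motor neurons sorted by green fluorescence from the cervical spinal cord of mouse embryos at embryonic day 12.5. There were 2 Hoxa5-deficient libraries and 2 libraries of control littermates, called biological replicates by the submitters; both groups carried the ChAT::GFP reporter, in which the choline acetyltransferase gene drives the fluorescent protein. The labels do not give the Hoxa5 allele, the driver of any deletion or the number of embryos per library.

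Hox genes encode homeodomain transcription factors that lie in 4 clusters and are used in order along the body axis. Genes of groups 9 and 10 are normally transcribed at thoracic and lumbar levels of the spinal cord, and in more anterior motor neurons they are known to be held silent by Polycomb proteins. In thoracic motor neurons Hoxc9 represses limb-level programmes and supports preganglionic and body-wall columns, while Hoxc10 and Hoxd10 help to specify the motor columns that innervate the hindlimb. The clusters also hold the miR-196 genes, next to group 9 and 10 genes, whose mature products repress Hoxb8 mRNA.

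The upstream sequences below are shown as examples of a start inside peaks in every library (Hoxd10), starts covered to a different extent between libraries (Hoxd9 and Hoxa10) and a start outside peaks in every library (Hoxa9). RefSeq gave 5 transcript starts for 4 of the 7 genes (build GRCm38.p6, the same coordinates as mm10); Hoxb9, Hoxc9 and Hoxc10 had no entry. Each run is the 250 bases before a start, 5′ to 3′ on the strand of the gene, and capitals mark bases that lay inside a peak in all 4 libraries.
Hoxd10, chr2:74691641-74691890, plus strand: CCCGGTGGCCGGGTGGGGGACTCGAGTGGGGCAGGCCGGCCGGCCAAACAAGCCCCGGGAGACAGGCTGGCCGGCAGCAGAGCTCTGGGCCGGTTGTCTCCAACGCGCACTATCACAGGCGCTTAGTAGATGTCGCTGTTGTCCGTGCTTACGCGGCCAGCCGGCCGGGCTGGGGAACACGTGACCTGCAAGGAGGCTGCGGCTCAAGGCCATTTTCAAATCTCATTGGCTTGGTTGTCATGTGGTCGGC
Hoxd9, chr2:74697513-74697762, plus strand: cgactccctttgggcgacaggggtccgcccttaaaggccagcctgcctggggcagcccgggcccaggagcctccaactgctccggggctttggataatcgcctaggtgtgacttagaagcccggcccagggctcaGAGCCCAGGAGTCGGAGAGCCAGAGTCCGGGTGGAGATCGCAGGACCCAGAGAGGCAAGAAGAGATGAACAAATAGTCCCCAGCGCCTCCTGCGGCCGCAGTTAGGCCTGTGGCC
Hoxa10, lower-coordinate start, chr6:52234940-52235189, minus strand: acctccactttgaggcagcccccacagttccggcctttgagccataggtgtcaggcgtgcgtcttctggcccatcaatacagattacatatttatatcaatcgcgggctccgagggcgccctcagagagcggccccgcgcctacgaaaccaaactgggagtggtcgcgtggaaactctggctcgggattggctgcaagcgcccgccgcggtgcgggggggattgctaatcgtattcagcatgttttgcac
Hoxa9, chr6:52227371-52227620, minus strand: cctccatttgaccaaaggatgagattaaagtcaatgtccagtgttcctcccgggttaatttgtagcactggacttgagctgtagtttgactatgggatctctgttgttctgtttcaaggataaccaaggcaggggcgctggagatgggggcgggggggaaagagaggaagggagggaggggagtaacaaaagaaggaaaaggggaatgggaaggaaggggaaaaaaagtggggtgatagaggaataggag

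All 250 bases before the Hoxd10 start lay inside peaks in every library. Before the Hoxd9 start, peaks covered 115 bases in each Hoxa5-deficient library, against 200 and 188 bases in controls. The stretch before the lower-coordinate Hoxa10 start was covered for 115 bases in control library 2 and for 0 bases in the other libraries. Peaks covered 0 bases before the Hoxa9 start and before the upper-coordinate Hoxa10 start, which lay 749 and 8 bp from the nearest region. The windows of Hoxd10 and of the lower-coordinate Hoxa10 start each held 20 CpG dinucleotides, that of Hoxd9 held 13, that of the upper-coordinate Hoxa10 start 7 and that of Hoxa9 3, beside a median of 6 over the 32851 RefSeq windows of this length. Thus a window with 20 CpG lay wholly inside peaks in every library at Hoxd10. At the lower-coordinate Hoxa10 start such a window lay inside a peak only in part and in 1 library. The Hoxd9 window, with 13, lay in part inside peaks in every library. On both strands, the E-box CACGTG was present at 73 bases before the Hoxd10 start (6.02% of all windows hold it) and the CCAAT box at 26 bases before that start and 64 bases before the lower-coordinate Hoxa10 start (33.8%). The GC box GGGCGG was found 226, 103 and 90 bases before the Hoxd9, Hoxa9 and upper-coordinate Hoxa10 starts (32.7%). The Hox-Pbx composite site TGATNNAT, present in 7.68% of all windows, matched in 0 of the 5, and the matches listed do not overlap each other. A match is a description of letters in these windows and not a binding site.

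The 3 miR-196 genes share a seed, bases 2 to 8 in capitals, and are shown because a control-only region lay beside one of them.
miR-196a-5p, chr11:96265187-96265208, plus strand, and chr15:102973365-102973386, plus strand: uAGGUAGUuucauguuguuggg
miR-196b-5p, chr6:52230129-52230150, minus strand: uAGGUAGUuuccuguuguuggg

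The products differ by A12C, from miR-196a-5p to miR-196b-5p, counted from 1 at the 5′ end. No region overlapped any of the 3 hairpins. The nearest region to Mir196b lay 317 bp away, on its upstream side, and was found in both controls and neither Hoxa5-deficient library. Mir196a-1 lay 1134 bp from a region of Hoxa5-deficient library 2 alone, and Mir196a-2 lay 485 bp from a region of control library 1 alone.

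The Hoxa5-deficient lists held 192771 and 206114 peak summits, against 165866 and 163016 in the control lists. Tag pileups and backgrounds at each summit were recovered from the deposited fold and p-values. The lowest background of a list, taken as the genome-wide level, came to 5.14 and 6.06 tags in Hoxa5-deficient libraries. In controls it was 5.43 and 4.39. It is proportional to depth only if the caller's settings were equal for all libraries, which the sources do not give. Every list ends at a −log10 p just above 2, so a region without a peak in a library is one that did not pass that limit there. At Hoxa5 itself, peaks covered 40.8% and 42.4% of the gene body in Hoxa5-deficient libraries, against 40.8% and 43.0% in controls; the labels do not say which part of the gene is altered, so its peaks do not check the genotypes. Of 8 motor neuron marker genes, 7 had a peak within 1 kb of a gene end in all 4 libraries, and Isl2 had one in some of them. The same held for 5 of 5 spinal progenitor genes, 4 of 5 interneuron genes, 3 of 3 glial and neural crest genes and 3 of 3 sensory neuron genes, so peaks at gene ends do not separate motor neurons from these cells. Of 3 genes each for endothelium, blood and muscle, 1 had such a peak in all 4 libraries (Kdr, Spi1 and Myod1). Endothelial Pecam1 and Cdh5, the blood genes Ptprc and Gata1 and the interneuron gene Gata3 had one in none of the libraries, and the muscle genes Myog and Myf5 had one in some.

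Regions at group 9 and 10 genes were fewer in Hoxa5-deficient libraries. Hoxa5-deficient libraries 1 and 2 had 15 each of the 30 regions, against 23 and 20 in control libraries 1 and 2, a difference in means of −6.50 regions (exact permutation test, two-sided p = 0.333, the smallest that 2 against 2 libraries allow). As a share of all assigned regions of a library these were 0.0148% and 0.0135%, against 0.0242% and 0.0219%. The groups did not overlap in either measure, although the Hoxa5-deficient lists were the longer ones. Hox groups 11 to 13 had a like pattern, with 15 and 14 regions in Hoxa5-deficient libraries against 22 and 19 in controls.

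Of the 30 regions, 13 had a peak in all 4 libraries (background 34.7% of assigned regions). Found in both controls and neither Hoxa5-deficient library (control-only) were 3, where the background was 3.5%. None (0 of 30) was found in both Hoxa5-deficient libraries and neither control (mutant-only), a class that held 9.16% of all assigned regions. A single control library held 10 regions (background 18.3%) and a single Hoxa5-deficient library held 3 (20.2%), while 1 was in 1 library of each genotype (4.48%). The 13 single-library regions were short, at 150 to 386 bp, and ranked low in their lists, at a median percentile of 13.2 and from 1.42 to 45.2. Leaving out control library 1 or 2, so that the other control alone defines control-only, gave 7 of 24 and 9 of 26 member regions, beside 13.1% and 15.1% of all assigned regions under the same settings. With only the peaks that reached a −log10 q of 5, 18 member regions were left, of which 1 was control-only (background 4.44%) and 1 mutant-only (12.1%), so the control-only share was then near its background.

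**Figure D1:**
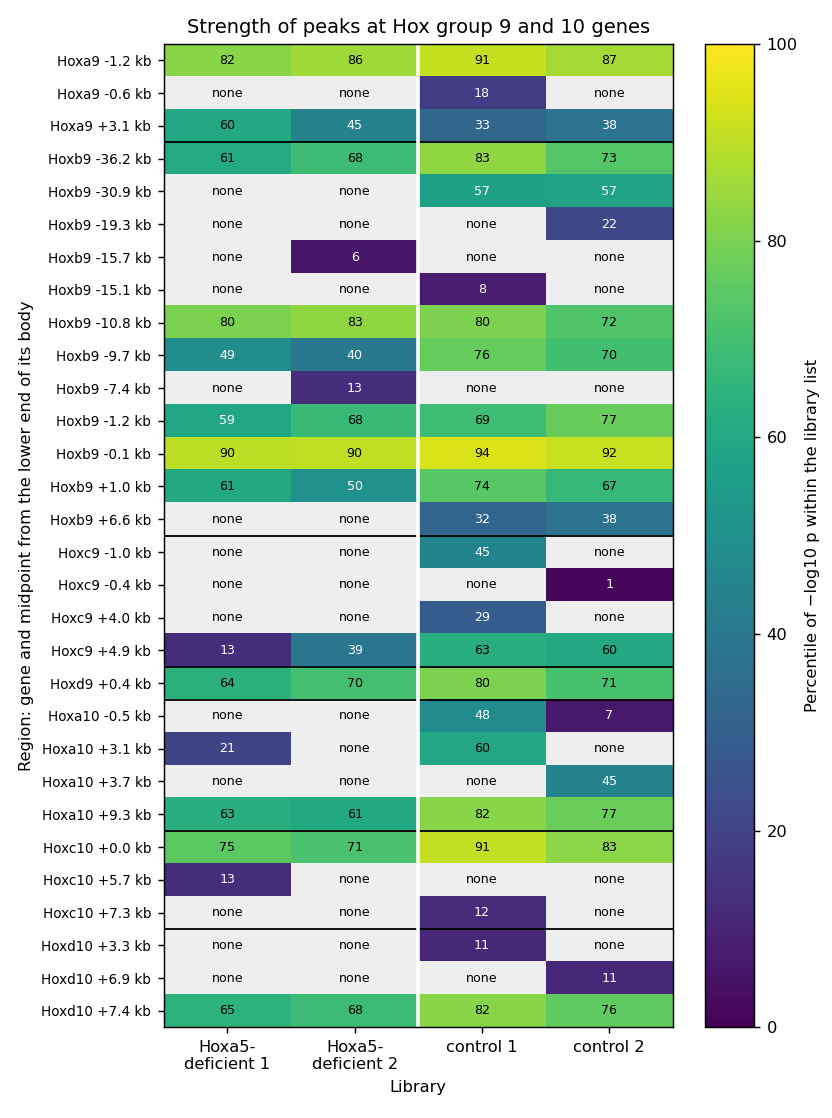
Percentile of each region's strongest peak, by −log10 p within its library's list, for the 30 regions (rows, named by gene and by the distance of the midpoint from the lower-coordinate end of the gene body, in kb) and the 4 libraries (columns); grey cells had no peak. Most single-library regions lie in control columns, and of the 13 regions filled in all columns 11 have both control percentiles above both Hoxa5-deficient ones.

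The strength of a peak was read as its percentile by −log10 p within its own list, and lists of different length do not give comparable ranks, so the percentiles describe places in a list. Over the 13 shared regions the median percentile was 62.8 and 68.5 in Hoxa5-deficient libraries, against 80.5 and 73.3 in controls. Over all 65789 regions shared by the 4 libraries the medians ran the other way, at 72.3 and 74.3 in Hoxa5-deficient libraries and 70.9 and 69.8 in controls. In 11 of the 13 regions both control percentiles lay above both Hoxa5-deficient ones, which held for 23.7% of all shared regions, and in 1 region the reverse held, against 37.3%. With equal numbers of peaks per library 12 regions stayed shared, and 10 of them had both control percentiles higher, against 38.1% of all shared regions.

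The number of tags at the summit, divided by the library's genome-wide background, gave a second measure, called scaled summit tags here. A smaller share of cells with an open site and a weaker opening per cell cannot be told apart in such bulk libraries. Raw summit tags of the 13 regions ran from 14 to 214 in Hoxa5-deficient libraries and from 29 to 268 in controls. Both controls lay above both Hoxa5-deficient libraries in 10 regions, and 20.1% of all shared regions did so; the reverse held in 1 region, against 42.3%. One limma fit over all 65789 shared regions (Benjamini-Hochberg adjustment over all of them, 2 libraries per group), chosen after the data were seen, called 6 of the 13 lower in Hoxa5-deficient libraries and 0 higher. Background shares were 6.56% lower and 19.5% higher, and 1.44% lower and 14.1% higher among regions over a gene end. Of the 13 regions 3 overlapped a gene end, at Hoxb9, Hoxd9 and Hoxc10, and among those only the Hoxc10 region was called. Gene ends here are the ends of gene bodies. The Hoxd10 region over a transcript start inside its body and the Hoxa10 region just inside a body end, both called, are not among the 3.

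The log2 difference in scaled summit tags, Hoxa5-deficient minus control, had a median of −0.68 over the 13 regions, against 0.18 over all shared regions. It was below 0 in 11 of 13 regions and in 24159 of all 65789. When each library was centred on its median, which removes that general shift, 10 of the 13 were called lower. These included the 3 over a gene end. Background shares were then 13% of all regions and 5.99% of those over a gene end. The calls over all regions were 8576 lower and 10457 higher in place of 4315 and 12836. Without control library 1 limma called 0 of the 13 (3 at an unadjusted p under 0.05), although 11 stayed below 0. Relative to the background around each peak, taken from the deposited fold, limma called 0 of 13, beside 4.15% of all regions lower, and 9 were below 0 (5 at an unadjusted p under 0.05). The local background itself differed: its median at the 13 summits was 1.31 and 1.38 times the genome-wide level in Hoxa5-deficient libraries, against 1.89 and 1.59 times in controls, while over all shared regions it was 1.17 and 1.22 against 1.17 and 1.14.

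**Figure D2:**
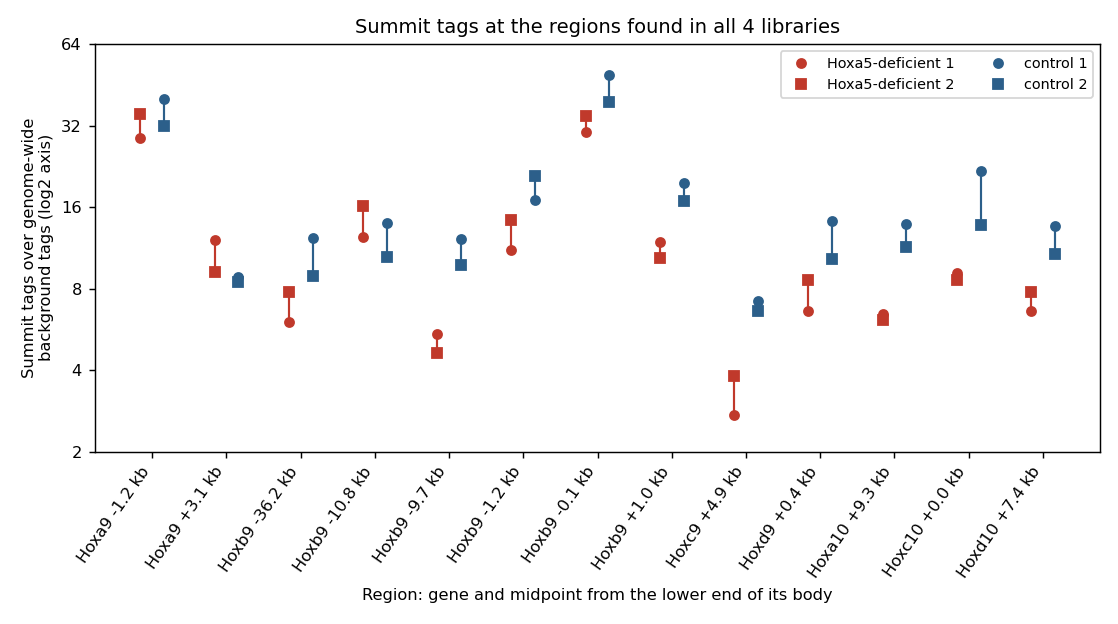
Scaled summit tags (tags at the summit over the genome-wide background of the library, log2 axis) for the 13 regions found in all 4 libraries, with 1 point per library, Hoxa5-deficient to the left of control in each pair, and a line joining the 2 libraries of a group. Control points lie above both Hoxa5-deficient points in 10 regions, and the Hoxa9 region at +3.1 kb has both Hoxa5-deficient points higher.

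Hoxb9, which in mouse helps to pattern the thoracic skeleton, had the most regions, with 12. Most had midpoints outside its body, out to 36.2 kb. By the nearest-body rule, such a count depends also on the distance to neighbouring genes. Of the 12, 6 were shared, 2 control-only, 2 in a single control and 2 in a single Hoxa5-deficient library. The strongest overlapped the lower-coordinate end of its body (chromosome 11, 96270796 to 96271761; body 96271330 to 96276595), with percentiles of 90.1 and 90.4 in Hoxa5-deficient libraries and 94.4 and 91.7 in controls. Scaled summit tags there were 30.4 and 34.8 in Hoxa5-deficient libraries, against 49.3 and 39.0 in controls, a log2 difference of −0.43 ± 0.22 (SE; limma adjusted p = 0.132). Groups did not overlap, but the difference did not pass the test.

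Inside the Hoxb9 body (96271850 to 96272792) scaled tags were 11.9 and 10.4 in Hoxa5-deficient libraries, against 19.7 and 16.9 in controls, and fell by 0.71 ± 0.27 on the log2 scale (limma adjusted p = 0.0316). The strongest summits of this interval lay up to 402 bp apart between libraries, within groups as well as between them, and the call was lost without control library 1 (limma adjusted p = 0.357), without control library 2 (0.126), without Hoxa5-deficient library 2 (0.0787) and on the fold over local background (0.637). Just below the body (96269951 to 96270325) scaled tags were 11.1 and 14.4 against 16.9 and 20.7, a log2 difference of −0.57 ± 0.26 (limma adjusted p = 0.0898). In scaled tags both controls were higher at all 3 regions within about 1 kb of this end of Hoxb9, as at 20.1% of all shared regions. Of these 3, limma called 1 lower, beside 6.56% of all shared regions. The 3 are neighbours and not independent observations. On the fold over local background the log2 differences were 0.0722 at the strongest, −0.21 inside the body and −0.07 just below it, and limma called none of the 3.

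Farther from the Hoxb9 body, a pair of neighbouring shared regions in the lncRNA gene Gm53 had different values. The one at 96261445 to 96261887, 9.66 kb from the body, had scaled tags of 5.45 and 4.62 in Hoxa5-deficient libraries, against 12.2 and 9.80 in controls, and fell by 1.12 ± 0.32 on the log2 scale (limma adjusted p = 0.00345). Its summits lay within 28 bp of each other in the 4 libraries; the limma adjusted p was 0.101 without control library 1 and 0.0617 on the fold over local background. The other, at 96260223 to 96260778, had 12.5 and 16.2 against 14.0 and 10.5, groups that overlap (log2 difference 0.23 ± 0.27, limma adjusted p = 0.581). Still farther out, at 36.2 kb (96234952 to 96235261), scaled tags were 6.03 and 7.76 in Hoxa5-deficient libraries and 12.3 and 8.89 in controls (log2 difference −0.61 ± 0.31, limma adjusted p = 0.135).

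Both Hoxb9 control-only regions had similar strength in the 2 controls. At 96240283 to 96240530, 30.9 kb from the body, the percentiles were 56.8 and 57.4, from 28 and 25 tags. Between Hoxb9 and Hoxb8, at 96277772 to 96277989, they were 32.5 and 38.1, from 50 and 46 tags over a local background of 25.05 and 20.85 tags. No peak was listed in either place in Hoxa5-deficient libraries.

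**Figure D3:**
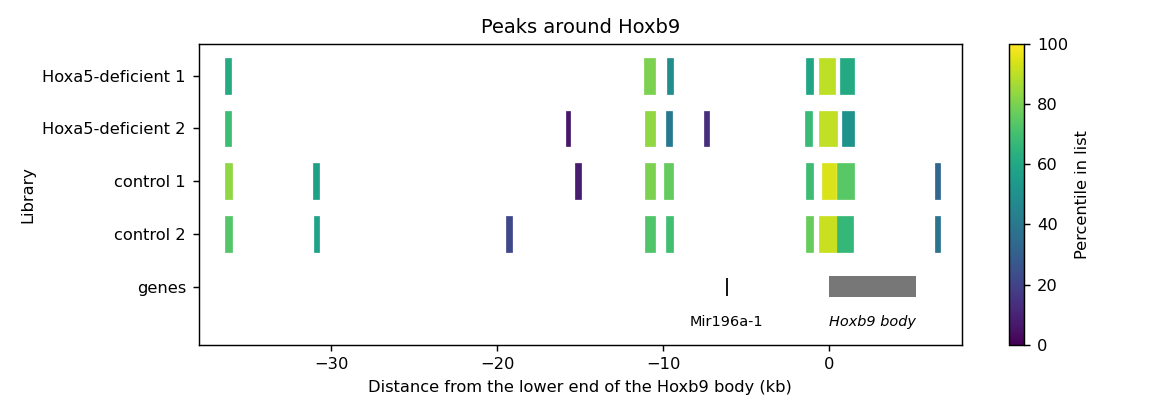
Peak intervals around Hoxb9 in each library (rows). The horizontal axis is the distance in kb from the lower-coordinate end of the gene body, and colour is the percentile in the library's list. The lowest row holds the gene body, drawn to scale, and a tick at the position of Mir196a-1. The interval 30.9 kb from the body and the one 1.29 kb past its other end appear in both controls and in neither Hoxa5-deficient library.

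Hoxc9, the thoracic gene that in mouse represses limb-level motor programmes, had 1 shared region inside its body (chromosome 15, 102981410 to 102982408; body 102977032 to 102984444). Scaled tags were 2.72 and 3.797 in Hoxa5-deficient libraries, against 7.18 and 6.61 in controls, and fell by 1.10 ± 0.33 on the log2 scale (limma adjusted p = 0.00551; 0.0724 without control library 1, 0.0949 without Hoxa5-deficient library 1 and 0.101 on the fold over local background). By scaled tags this region was the weakest of the 13 in all 4 libraries, and raw summit tags there were 14 and 23, against 39 and 29. The strongest summits did not coincide between genotypes: they lay 954 and 879 bp from the region's lower end in Hoxa5-deficient libraries, against 359 and 317 bp in controls. Hoxa5-deficient library 1 had a peak of 150 bp in this region, Hoxa5-deficient library 2 had 741 bp, and controls had 851 and 532 bp. The comparison is therefore of the strongest site in the interval and not of 1 fixed site. Of the other 3 Hoxc9 regions, 2 were in control library 1 alone and 1 in control library 2 alone, and none of the 4 overlapped an end of the gene.

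Hoxa9, known for its part in blood progenitors and leukaemia, had 2 shared regions and 1 in a single control. Inside its body (chromosome 6, 52225767 to 52226622; body 52223097 to 52227370) scaled tags were 12.1 and 9.25 in Hoxa5-deficient libraries, against 8.84 and 8.44 in controls (log2 difference 0.29 ± 0.30, limma adjusted p = 0.517). It was the 1 shared region with both Hoxa5-deficient values higher, and the peaks there were wider, at 835 and 778 bp against 499 and 438 bp. Summits differed in position too, at 460 and 428 bp from the lower end of the region in Hoxa5-deficient libraries and at 154 and 74 bp in controls. Between Hoxa7 and Hoxa9, 1.22 kb outside the Hoxa9 body, a strong region (52221355 to 52222402) had scaled tags of 28.8 and 35.3 against 40.1 and 31.9, groups that overlap (log2 difference −0.17 ± 0.22, limma adjusted p = 0.625). Hoxd9 had a single region, over its start (chromosome 2, 74697563 to 74698838), with scaled tags of 6.62 and 8.59 in Hoxa5-deficient libraries, against 14.2 and 10.3 in controls. Its groups did not overlap, and the log2 difference was −0.68 ± 0.30 (limma adjusted p = 0.0806).

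Each of the 3 group 10 genes had 1 shared region, and all 3 were called lower in the fit as reported. Without control library 1 their limma adjusted p-values were 0.346 for Hoxc10, 0.413 for Hoxd10 and 0.153 for Hoxa10, and on the fold over local background they were 0.0651, 0.40 and 0.107 in the same order. Hoxc10, one of the lumbar limb-column genes, had its region over the lower-coordinate end of the body (chromosome 15, 102966333 to 102967284; body 102966796 to 102971898). Scaled tags there were 9.15 and 8.59 in Hoxa5-deficient libraries, against 21.7 and 13.7 in controls, and fell by 0.96 ± 0.28 on the log2 scale (limma adjusted p = 0.00384). The controls differed from each other by more than the Hoxa5-deficient libraries did, but both lay above them.

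Hoxd10, the other lumbar gene, had its region over the start whose upstream sequence is given above (chromosome 2, 74691398 to 74691985). Scaled tags were 6.62 and 7.76 in Hoxa5-deficient libraries, against 13.6 and 10.7 in controls, and fell by 0.75 ± 0.30 on the log2 scale (limma adjusted p = 0.0498, just inside the threshold). Summits lay within 44 bp of each other, and the peaks had similar widths, at 529 and 588 bp against 568 and 520 bp. The Hoxd10 call was also lost without Hoxa5-deficient library 1 (limma adjusted p = 0.13), Hoxa5-deficient library 2 (0.0541) or control library 2 (0.0934), and with summits within 150 bp (0.0533). The 2 other Hoxd10 regions were in 1 control library each, at percentiles of 11.2 and 11.3.

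Hoxa10, a regulator of lumbar and uterine patterning, had a shared region just inside the upper-coordinate end of its body (chromosome 6, 52240205 to 52240847; body 52231197 to 52240854). There scaled tags were 6.42 and 6.11 in Hoxa5-deficient libraries, against 13.8 and 11.4 in controls, and fell by 1.002 ± 0.31 on the log2 scale, a ratio of 0.499 (limma adjusted p = 0.00693). Its control-only region beside Mir196b (52230482 to 52230930) was uneven between the controls, at percentiles of 48.3 and 6.79, from 40 and 19 tags, with summits 277 bp apart. Around the lower-coordinate start, a region at 52233954 to 52234644 was in Hoxa5-deficient library 1 (percentile 20.7) and control library 1 (60.1), and its neighbour at 52234807 to 52235054 was in control library 2 alone (44.6).

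Summits lay within 75 bp of each other in 10 of the 13 shared regions, and over 150 bp apart in the other 3, the ones inside Hoxa9, Hoxb9 and Hoxc9. With the fit limited to regions whose summits lay within 150 bp, limma called 3 of 10 member regions lower, beside 5.96% of all regions in that fit.

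The share of each gene body inside peaks did not overlap between genotypes at 5 of the 7 genes. Hoxa5-deficient libraries were higher at 2 of them and controls at 3, where the shares over all 16960 protein-coding bodies with a peak were 39% and 9.9%. Hoxb9 had 18.8% and 20.3% of its body inside peaks in Hoxa5-deficient libraries and 24.97% and 23.7% in controls. Hoxc10 had 4.53% and 7.49% against 9.58% and 7.60%, and Hoxd10 had 4.88% and 5.43% against 6.96% and 9.19%. Hoxa9 went the other way, at 19.5% and 18.2% in Hoxa5-deficient libraries against 11.7% and 10.2% in controls. For Hoxd9, with 44.0% in both Hoxa5-deficient libraries against 42.3% and 28.3%, both Hoxa5-deficient values were also higher; its region was covered by peaks for 1191 bp in each Hoxa5-deficient library, against 1235 and 879 bp in controls. The groups overlapped for Hoxa10 (8.35% and 2.40% against 13.7% and 7.37%) and Hoxc9 (2.02% and 9.996% against 16.7% and 7.18%).

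**Figure D4:**
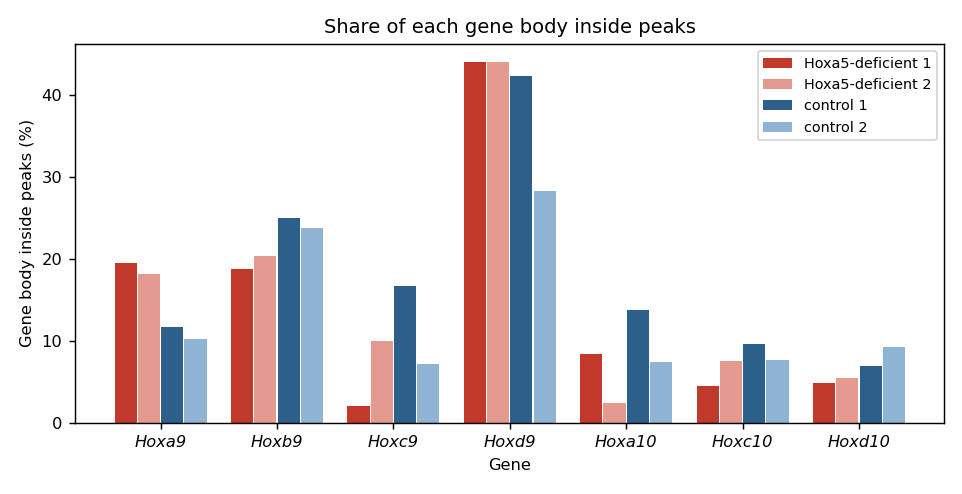
Percent of each gene body inside peaks (vertical axis, from 0) for the 7 genes (horizontal axis), with 1 bar per library, Hoxa5-deficient bars to the left of control bars. Hoxd9, the shortest gene at 2446 bp, has the largest share in every library, and bars of both genotypes overlap at Hoxc9 and Hoxa10.

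The other Hox genes give the setting, with values that were not tested against those of groups 9 and 10. Over groups 11 to 13, 11 regions were shared, with a median log2 difference of −0.28, 2 called lower and 0 higher by the same limma fit. Over groups 6 to 8 there were 15, with a median of −0.08, 2 lower and 0 higher, and over groups 4 and 5, which include Hoxa5, there were 20, with a median of 0.00, 1 lower and 4 higher. Groups 1 to 3 had 47, with a median of −0.11, 0 lower and 3 higher. Among all 93 shared regions of these other Hox genes, 5 were called lower and 7 higher, beside 6.56% and 19.5% of all shared regions. These counts depend on the scaling: with centred libraries limma called 3 lower and 0 higher in groups 11 to 13, 5 and 0 in groups 6 to 8, 6 and 3 in groups 4 and 5, and 13 and 3 in groups 1 to 3, beside 10 and 0 in groups 9 and 10. The median share of the gene body inside peaks over groups 9 and 10 was 8.35% and 9.996% in Hoxa5-deficient libraries and 13.7% and 9.19% in controls. For groups 4 and 5 it was 34.8% and 31.1% in Hoxa5-deficient libraries and 35.1% and 31.4% in controls, higher in every library. Groups 11 to 13 held 2 control-only and 0 mutant-only regions of 32, with 12 in a single control and 5 in a single Hoxa5-deficient library. Control-only and mutant-only regions were 0 and 0 of 21 at groups 6 to 8 and 4 and 3 of 38 at groups 4 and 5. At groups 1 to 3 they were 2 and 4 of 85. The control-only share was thus 10.5% at groups 4 and 5 and 10% at groups 9 and 10. Over all assigned regions 3.5% were control-only and 9.16% mutant-only.

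**Figure D5:**
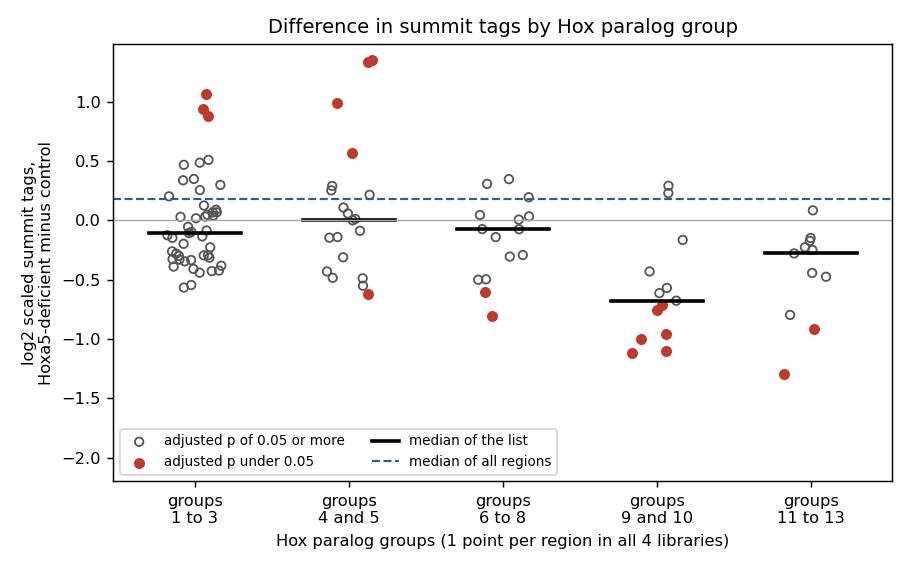
Log2 difference in scaled summit tags (Hoxa5-deficient minus control, vertical axis) of each region found in all 4 libraries, by Hox paralog group (horizontal axis; points are spread sideways for clarity). Filled points passed the limma threshold, black bars are list medians, and the dashed line is the median of all 65789 regions, 0.18; in groups 9 and 10, 6 of 13 points are filled and all 6 are below 0.

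Genes of Hox cofactors, of the motor columns and of the cluster flanks were counted in the same fit. Over all 65789 shared regions that fit called 6.56% lower and 19.5% higher. With centred libraries it called 13% lower and 15.9% higher. At 9 Hox cofactor genes (Pbx, Meis and Pknox, which bind DNA with Hox proteins) limma called 7 of 161 shared regions lower and 46 higher, with a median log2 difference of 0.23 (with centred libraries 19 lower and 34 higher, median 0.02). At 16 genes of thoracic and limb-level motor columns, 21 of 186 were lower and 36 higher, with a median of 0.08. With centred libraries these were 40 lower and 31 higher, with a median of −0.12. At genes that flank the Hox clusters, 11 of the 12 listed being in the gene table, 5 of 151 were lower and 54 higher, with a median of 0.32 (with centred libraries 18 lower and 45 higher, median 0.12).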

How the data were processed

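ATAC-seq was made from 2 Hoxa5-deficient and 2 control libraries. Tools listed in the submitters' processing notes are MACS2 2.2.4, Bowtie2 2.3.4.3, SAMtools 1.9 and FastQC 0.11.9, with the build mm10. Their parameters, any Tn5 shift and any duplicate removal are not given in the sources used here. Every library came as its own narrowPeak list. In these deposited lists the authors give, per summit, a score capped at 1000, the fold ratio over background, −log10 p-value, −log10 q-value and an offset; fold and p are the authors' own values of each peak and are ranked only within a list.

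Fold and p of a summit fix its tag pileup and background: a whole number of tags met the deposited −log10 p within 0.001 for at least 99.9995% of summits in each library. Percentiles are ranks of −log10 p within a list. Coordinates are 1-based; gene bodies came from RefSeq (GRCm38.p6; 21887 protein-coding genes). Log2 of summit tags over the lowest background was fitted with limma 3.58.1 (trend on, no pseudocount) over regions found in all 4 libraries, with 0.05 as threshold; regions had to pass the caller in every library to enter. This fit was added after the data were seen, and members and gene lists were chosen with earlier results of these data known. All regions of the 7 genes are described; other genes come from fixed lists. Pileup recovery, region assignment and the limma fit were checked on simulated data, where the fit called a minority of the regions changed by known folds and none of the unchanged ones. Few regions were changed there, all had the same spread setting and no general shift was added. The simulation therefore does not give the error rate of the fit in these libraries. In the main fit the SE and limma p-values rest on the spread between libraries pooled over regions of like strength. They do not measure the spread between the libraries at a single region.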

Additional observations from a re-analysis of the deposited data

How the results depend on the processing

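The settings varied were a stricter peak threshold, equal peak numbers, summit windows, a 25% cover rule, a 20 kb limit, assignment by summit, other rankings and leaving out libraries. The count of shared regions stayed between 11 and 18 and the difference in regions per library stayed below 0, from −8.50 to −2.50. The control-only count was 1 at −log10 q of 5 or more and 3 to 9 with a library left out; the mutant-only count was 1 at that threshold, 3 with summit windows and 0 to 2 with a library left out. The median percentile difference over the shared regions (Hoxa5-deficient minus control, −12.4) was −18.2 with equal peak numbers and from −15.8 to −9.01 with a library left out. Regions with both control percentiles higher numbered 8 of 13 when peaks were ranked by fold (24% of all shared regions) and 8 of 13 when regions were ranked (21.7%).

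Alternatives to the limma fit were chosen after seeing the data. Regions called lower, 6 as reported, were 10 with centred libraries, 0 on the fold over local background, 3 with summits within 150 bp and 0 to 6 with a library left out, the 0 without control library 1; the lone control is then assumed to vary like the other group. On the local fold the difference turned to 0.0059 at the Hoxd9 region and 0.0722 at the strongest Hoxb9 region; the cause was not tested. Single-region calls and directions were unchanged in 98 of 125 refits, lost in 19, gained in 6 and reversed in 2. All 19 losses fell on the 6 regions called as reported, while most unchanged refits were of regions without a call. Over all regions the calls were 4315 lower and 12836 higher, against 2730 and 8768 on the local fold, 2440 and 8104 at the stricter threshold and 2238 to 3825 lower and 6212 to 17353 higher with a library left out. Same-numbered libraries did not deviate together from region to region (correlation 0.0119 over 65789 regions). This correlation cannot show a shift common to all regions of a library, so it does not settle whether the numbers pair them. With the replicate number as a block, limma called 6 of the 13 lower, and over all regions 4775 lower and 15817 higher. The difference in regions per library was −6.50 (exact sign flips within the 2 same-numbered pairs, p = 0.5, the smallest that 2 pairs allow). Summit tags as few as 14 limit the weakest regions.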
